A study of Schizosaccharomyces pombe with 8 samples.

Results

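The S2A strain of the fission yeast Schizosaccharomyces pombe was set against its wild type (WT) over every gene ID of the count table, with the weight on coding genes outside antisense RNA and mating. In the S2A strain serine 2 of the repeated heptad in the tail of Rpb1, the largest subunit of RNA polymerase II, is replaced by alanine. The comparison holds 4 of the 8 libraries, 2 per strain. Of 7000 gene IDs, 6243 had enough reads to be tested, and 4990 of these were protein-coding. The S2A cells were h- rpb1 S2A::kanMX6 Rpb3-3HA::hphMX6, and the WT cells were h- Rpb3-3HA::hphMX6. The other libraries came from the S7A strain (h- rpb1 S7A::kanMX6 Rpb3-3HA::hphMX6) and the Y1F strain (h- rpb1 Y1F::kanMX6 Rpb3-3HA::hphMX6), which carry alanine at serine 7 and phenylalanine at tyrosine 1. All strains therefore share a tagged polymerase subunit, Rpb3, and the h- mating type. The kanMX6 marker is listed for the mutants and not for WT, so the substitution and its marker cannot be told apart. Cells were grown in YES medium, a rich yeast extract medium, to mid-log phase (OD 0.5), and total RNA was sequenced after ribosomal RNA depletion.

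The tail of Rpb1 consists of many copies of a heptad with the residues tyrosine, serine, proline, threonine, serine, proline and serine. Kinases add phosphate to the serines as the polymerase moves along a gene, and serine 2 phosphate builds up towards the 3′ end, where it is read by factors that act in elongation and in RNA processing. Fission yeast lives without this phosphate, and the residue is known above all for its part in the switch to sexual development.

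The 8 libraries held 13391705 to 23081870 counts, with 20075620 and 14830660 in S2A and 15699008 and 14620548 in WT. Levels are given as CPM, read counts scaled to a common library total, after TMM scaling. Differences are log2 fold changes of S2A over WT, with a standard error (SE) and an adjusted p from edgeR's quasi-likelihood test over all genes tested. A gene was called, and is said to have risen or fallen, at an adjusted p under 0.05. The labels do not say that replicates were separate cultures, so the p-values measure the spread between these libraries, which may be technical. The targeted gene rpb1 itself had 387 and 382 CPM in S2A, against 720 and 691 CPM in WT, a log2 fold change of −0.88 ± 0.044 (SE). This fall was shared by the other mutants, with 377 and 388 CPM in S7A and 450 and 449 CPM in Y1F. All 3 mutants carry an altered rpb1 with a marker, and whether its reads were counted as fully as in WT was not tested. The 6 M-cell markers summed to 82.6 and 85.9 CPM in S2A and to 149 and 150 CPM in WT, and none of them was at 0 in all libraries. Their members did not move together: of 5 tested, 1 rose and 2 fell. mfm2 had 3.40 and 2.44 CPM in S2A, against 34.6 and 37.5 CPM in WT. mam1 had 50.5 and 51.8 CPM in S2A, against 91.0 and 90.6 CPM in WT. sxa2 had 21.6 and 24.7 CPM in S2A, against 16.4 and 14.4 CPM in WT. The 4 P-cell markers, summed, were at 478 and 490 CPM in S2A and at 441 and 442 CPM in WT. Of these markers sxa1, an aspartic protease gene, had 426 and 439 CPM in S2A and 402 and 404 CPM in WT. The P-cell markers did not move together either: of 4 tested, 2 rose and 1 fell. map4 had 33.9 and 32.8 CPM in S2A, against 16.96 and 17.79 CPM in WT. map2 had 9.77 and 9.34 CPM in S2A, against 6.55 and 5.84 CPM in WT. map3 had 7.88 and 8.66 CPM in S2A, against 15.06 and 14.15 CPM in WT.

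Calls were frequent. In all, 3458 of 6243 genes were called, which is 55.4%, and the share was 28.8% for higher and 26.6% for lower. Most of these changes were small: 658 genes, or 10.5%, were called and at least 2-fold different, 480 of them higher (7.69%) and 178 lower (2.85%). Among the 4990 coding genes 54.3% were called, and 24.9% were called higher and 29.4% lower. At 2-fold or more the coding genes gave 137 higher (2.75%) and 85 lower (1.7%). These shares are the background against which each count of a gene group below is read.

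The coding genes with the largest rises had varied roles, among them sugar uptake, a protein kinase and genes with no known product. SPBPB2B2.06c, annotated as a phosphoprotein phosphatase, had 85.01 and 95.97 CPM in S2A, against 11.85 and 15.04 CPM in WT (2.75 ± 0.14, adjusted p = 1.2e-08). SPAPB18E9.04c, an uncharacterized protein, had 103 and 92.1 CPM in S2A and 19.97 and 20.53 CPM in WT. The dehydrogenase gene osr1 had 68.7 and 60.2 CPM in S2A, against 13.6 and 13.4 CPM in WT (2.26 ± 0.087, adjusted p = 1.84e-09). In each of these genes both S2A libraries lay above both WT libraries, which the rule for naming the largest rises required. The transcription factor gene atf31, of the family that binds stress response elements, had 30.2 and 31.1 CPM in S2A and 6.745 and 7.005 CPM in WT. Its log2 fold change was 2.15 ± 0.11 (adjusted p = 1.41e-08). The kinase gene ppk31 had 28.7 and 27.9 CPM in S2A, against 5.70 and 7.14 CPM in WT (2.14 ± 0.12). SPBC19C7.04c, an uncharacterized protein, stood at 48.6 and 47.2 CPM in S2A and 10.9 and 12.2 CPM in WT. meu6, which encodes a protein with a pleckstrin homology domain, had 21.2 and 21.0 CPM in S2A and 4.91 and 4.46 CPM in WT. The other 3 of the 10 largest rises were gdt1, the small heat shock protein gene hsp16 and ght5, a high-affinity glucose transporter gene described below with the sugar genes. gdt1 had the largest rise of the 10, with 73.8 and 70.5 CPM in S2A, against 0.393 and 0.137 CPM in WT. Its log2 fold change of 8.04 thus rests on a WT level near 0. hsp16 had 239 and 221 CPM in S2A, against 59.5 and 53.2 CPM in WT. Some of these rises were not particular to S2A. Over WT, SPBC19C7.04c was at 3.03 in S7A, above its 2.05 in S2A, and at 0.94 in Y1F. For hsp16 the values were 1.44 in S7A and 0.08 in Y1F, and for SPAPB18E9.04c −0.77 and 1.84. By contrast, gdt1 was called in neither, at 0.50 in S7A and −0.10 in Y1F.

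**Figure D1:**
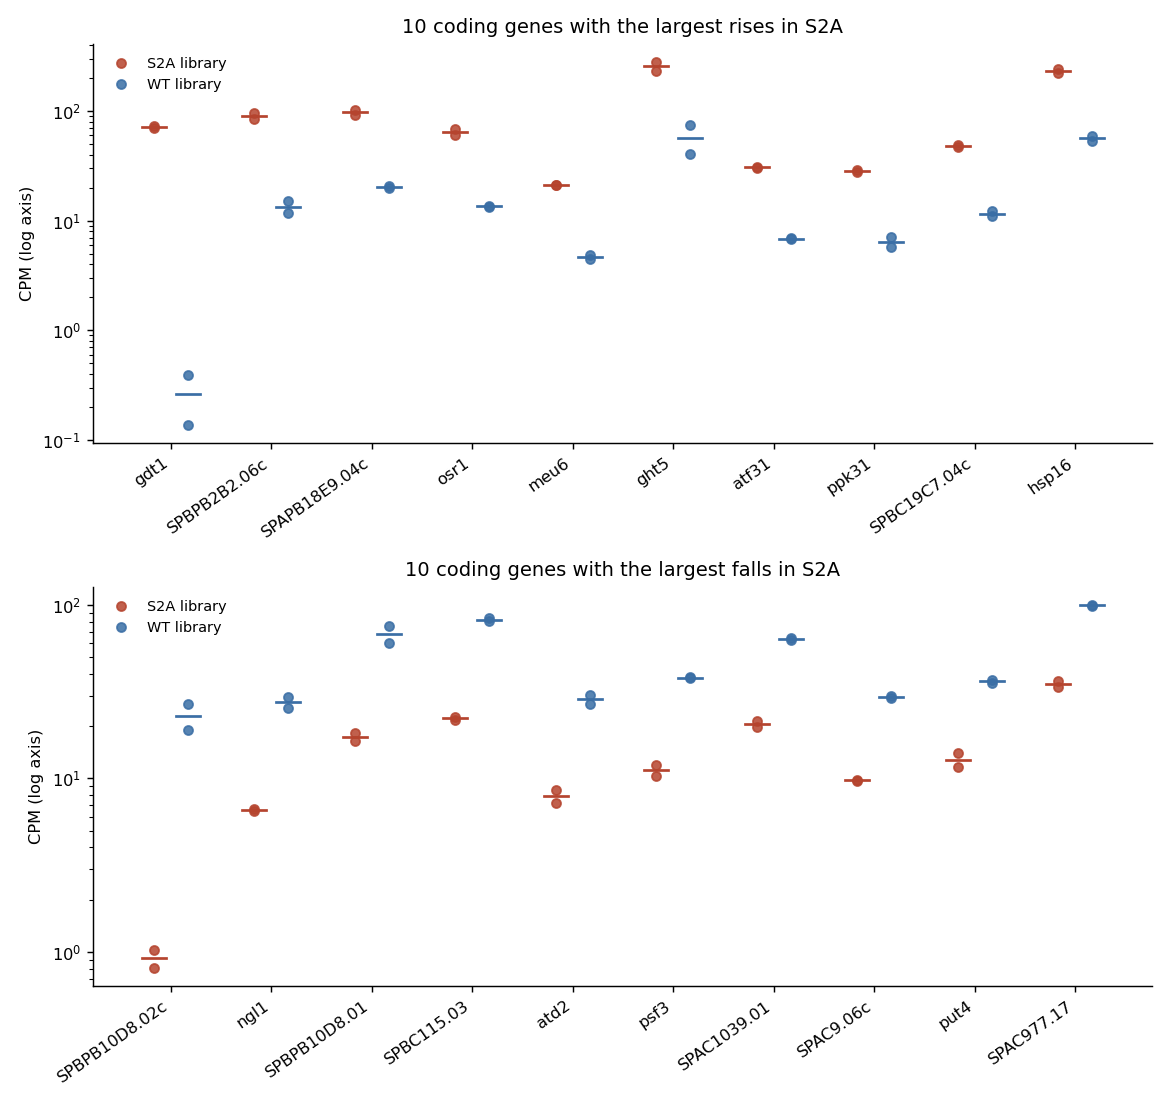
Level in CPM on a log axis of the 10 coding genes with the largest rises (top) and the 10 with the largest falls (bottom); each point is 1 library, each short line a mean, with S2A on the left and WT on the right of each gene. The 2 libraries of a strain lie close together beside the gap between strains, except for gdt1 and ght5 in WT.

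The largest falls took in transport, redox and DNA replication genes. SPBPB10D8.02c, annotated as an arylsulfatase, had 1.02 and 0.812 CPM in S2A, against 18.9 and 26.8 CPM in WT (−4.60 ± 0.28, adjusted p = 5.88e-08). Its direct neighbour SPBPB10D8.01, a cysteine transporter gene, had 16.4 and 18.2 CPM in S2A and 59.9 and 75.6 CPM in WT (−1.97 ± 0.11). Both genes of this pair thus fell, by different amounts. The falls were not particular to S2A. Over WT, SPBPB10D8.02c was at −5.15 in S7A and −6.47 in Y1F, and SPBPB10D8.01 at −4.31 and −5.06. SPBC115.03, annotated as an oxidoreductase, had 22.5 and 21.8 CPM in S2A, against 80.4 and 83.6 CPM in WT (−1.89 ± 0.059, adjusted p = 3.72e-10). ngl1, a peptide N-glycanase gene, had 6.47 and 6.63 CPM in S2A and 29.3 and 25.6 CPM in WT. psf3, a subunit of the GINS complex that opens DNA for replication, had 10.36 and 11.98 CPM in S2A, against 38.5 and 37.7 CPM in WT (−1.78 ± 0.087). The aldehyde dehydrogenase gene atd2 had 7.25 and 8.59 CPM in S2A and 30.4 and 27.0 CPM in WT. SPAC9.06c, an enzyme of the methionine salvage pathway, had 9.82 and 9.68 CPM in S2A, against 29.1 and 29.7 CPM in WT. SPAC977.17, a channel protein of the MIP superfamily, had 36.6 and 33.5 CPM in S2A and 99.1 and 100.0 CPM in WT. The groups did not overlap for any of these genes, which the rule for naming them required. Several of them also fell in the other mutants over WT. ngl1 was at −0.26 in S7A and −2.03 in Y1F, and atd2 at −0.51 and −2.05. For both genes S2A and Y1F were not told apart. SPBC115.03 was at −0.72 in S7A and −0.48 in Y1F, and SPAC977.17 at −0.72 and −0.68, smaller falls than in S2A. SPAC9.06c was called in neither, at 0.09 in S7A and −0.17 in Y1F.

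Among the 200 most abundant coding genes no change reached 2-fold for the 10 that changed most, and 9 of these 10 fell. The exception was pil1, a core component of eisosomes, the furrows of the plasma membrane. It had 1272 and 1227 CPM in S2A, against 722 and 837 CPM in WT (0.68 ± 0.078, adjusted p = 1.33e-05). The fatty acid desaturase gene ole1 had 1421 and 1380 CPM in S2A and 2258 and 1950 CPM in WT (−0.59 ± 0.067). The serine hydroxymethyltransferase gene shm1, which feeds carbon from serine into folate metabolism, had 955 and 1003 CPM in S2A, against 1464 and 1375 CPM in WT (−0.54 ± 0.054). The malic enzyme gene mae2 fell by 0.49, the branched-chain amino acid genes ilv5 and eca39 fell by 0.46 and 0.41, and the valine tRNA ligase gene vrs1 fell by 0.40. The pyruvate carboxylase gene pyr1 fell by 0.39 and the cyclophilin gene ppi1 by 0.43. The ribosomal protein gene rps23 was at −0.38, but near-identical copies of ribosomal protein genes could share reads.

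Genes that make amino acids and load them onto transfer RNAs were more often lower in S2A than coding genes at large, by small amounts. Of 16 arginine and lysine genes tested, 13 fell, 0 rose and 3 were not called, with a median log2 fold change of −0.28, against −0.01 over all coding genes. At an unadjusted p under 0.05 edgeR also gave 0 higher, and DESeq2 called 0 higher and 13 lower. arg3, which joins ornithine and carbamoyl phosphate, had 45.8 and 49.1 CPM in S2A, against 76.5 and 74.5 CPM in WT (−0.67 ± 0.065, adjusted p = 2.92e-06). arg12, the argininosuccinate synthase gene, had 203 and 223 CPM in S2A and 348 and 319 CPM in WT (−0.65 ± 0.056). lys12, an enzyme of the aminoadipate route to lysine, had 199 and 213 CPM in S2A, against 335 and 306 CPM in WT (−0.64 ± 0.054). Of 22 genes for branched-chain, aromatic and histidine synthesis, 15 fell, 1 rose and 6 were not called (median −0.27). The largest fall there was in leu1, the isopropylmalate dehydrogenase gene, with 290 and 338 CPM in S2A and 451 and 421 CPM in WT (−0.48 ± 0.067). In tyr1, a tyrosine synthesis gene, the levels were 51.5 and 50.4 CPM in S2A, against 71.2 and 67.0 CPM in WT. Of 16 transfer RNA synthetase genes 13 fell and 1 rose (median −0.28). Without S2A replicate 2 the synthetase list and the branched-chain, aromatic and histidine list each had 0 rises. The alanine enzyme gene ala1 had 572 and 602 CPM in S2A, against 859 and 809 CPM in WT (−0.51 ± 0.050, adjusted p = 3.87e-06). The lysine enzyme gene krs1 fell by 0.43 and the tryptophan enzyme gene wrs1 fell by 0.42.

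**Figure D2:**
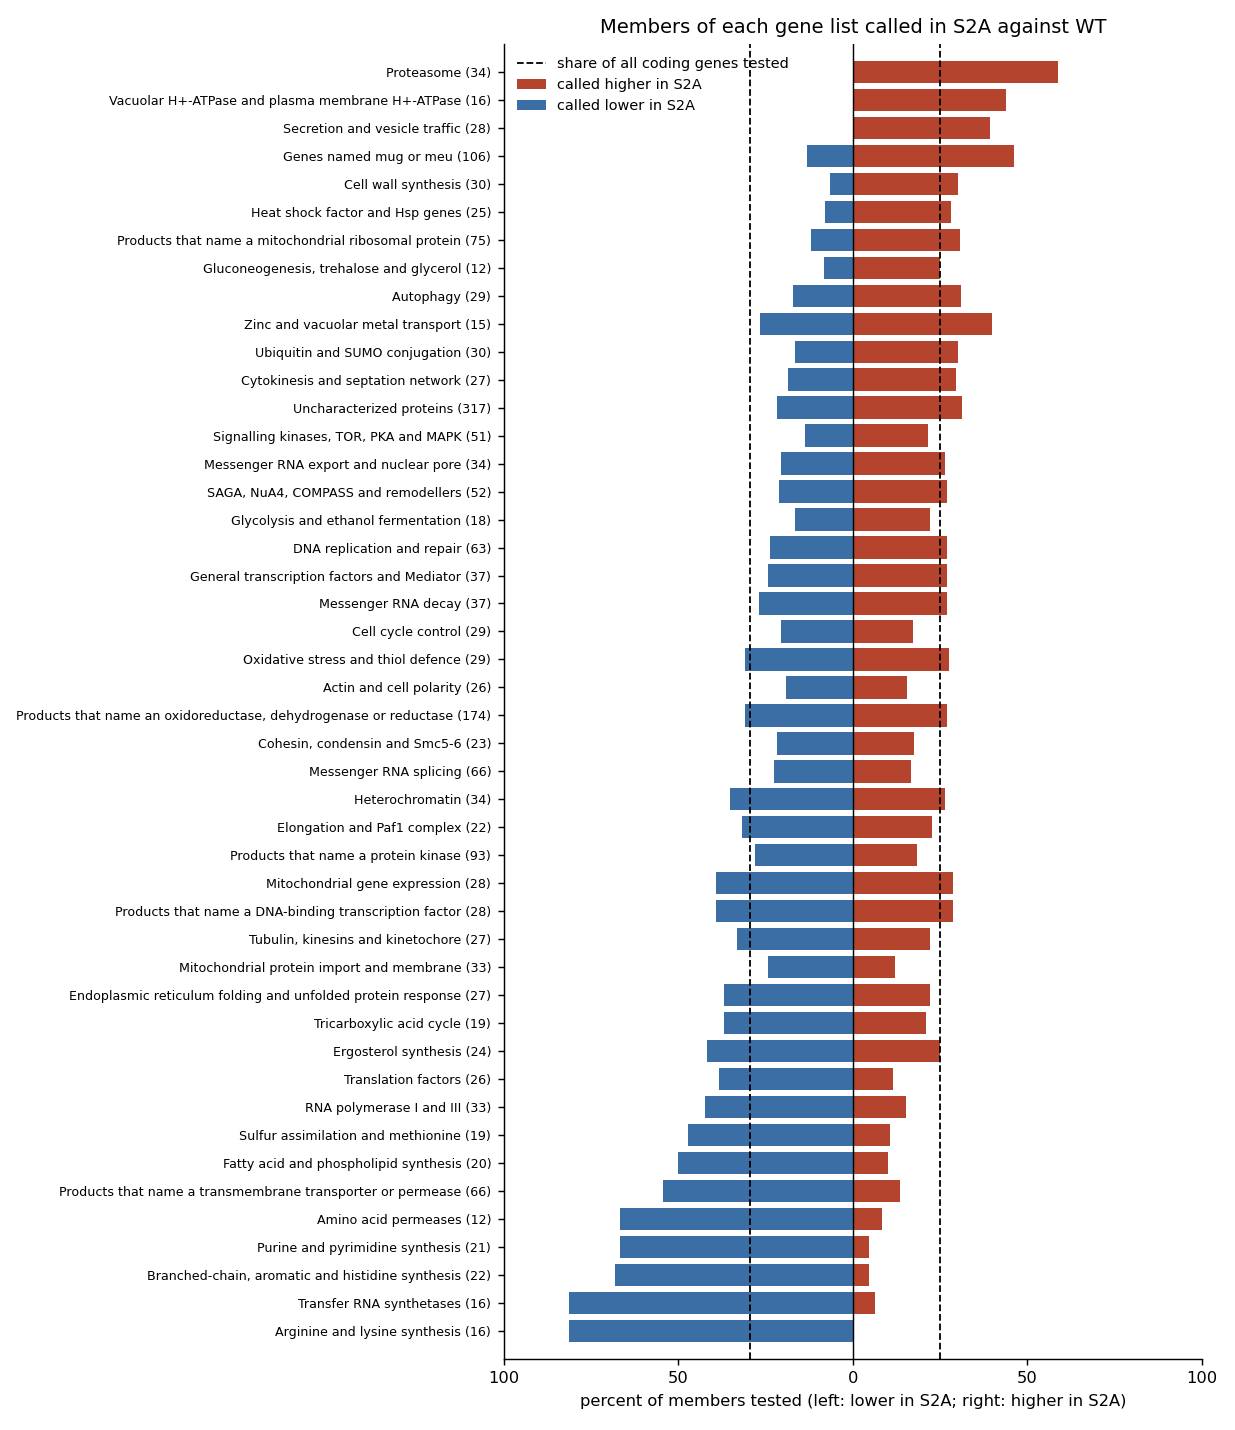
Percent of the tested members of each gene list that were called higher (red, to the right) or lower (blue, to the left) in S2A than in WT, with the number tested in brackets. Dashed lines mark the shares over all 4990 coding genes tested, 24.9% higher and 29.4% lower; amino acid, nucleotide and transfer RNA synthetase lists stand at the bottom, and the proteasome at the top.

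Nucleotide, sulfur, and fatty acid and phospholipid genes leaned the same way, and ergosterol genes less clearly. Of 21 purine and pyrimidine genes 14 fell and 1 rose (median −0.17). This count was 9 without S2A replicate 1 and 9 without WT replicate 1. The purine genes ade8 and ade7 fell by 0.60 and 0.54, and fur4, the uracil transporter gene, had 77.6 and 80.7 CPM in S2A, against 120 and 121 CPM in WT. Of 19 sulfur assimilation and methionine genes 9 fell and 2 rose (median −0.13). The largest fall was in met17, the homocysteine synthase gene that joins sulfide to a carbon chain, with 52.4 and 64.5 CPM in S2A and 165 and 149 CPM in WT (−1.43 ± 0.080, adjusted p = 2.69e-08). sam1, the S-adenosylmethionine synthetase gene, had 701 and 701 CPM in S2A, against 1041 and 1127 CPM in WT (−0.63 ± 0.053). In the same list gcs1, the first enzyme of glutathione synthesis, rose, with 342 and 337 CPM in S2A and 247 and 237 CPM in WT (0.49 ± 0.043). In the sulfur list 4 rose under TMM on coding genes. Of 20 fatty acid and phospholipid genes 10 fell and 2 rose, or 1 rose by DESeq2 and without S2A replicate 2, and of 24 ergosterol genes 10 fell and 6 rose. The ergosterol count was 6 lower without S2A replicate 1. The squalene monooxygenase gene erg1 fell by 0.43, whereas the sterol isomerase gene erg2 rose by 0.29.

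Transporter genes fell more often than coding genes at large. Of 66 genes whose product names a transmembrane transporter or permease, 36 fell and 9 rose (median −0.23). The list shares 10 genes with the 12 of the amino acid permease list, and the other 56 gave 29 lower and 9 higher. Of 12 amino acid permeases 8 fell and 1 rose (median −0.35). SPAC1039.01, annotated as an amino acid permease and among those 56, had 19.9 and 21.5 CPM in S2A, against 64.8 and 63.0 CPM in WT (−1.63 ± 0.065, adjusted p = 2.25e-09). vht1, which takes up biotin, had 128 and 134 CPM in S2A and 386 and 346 CPM in WT (−1.48 ± 0.072, adjusted p = 9.11e-09). The proline permease gene put4 stood at 11.7 and 13.9 CPM in S2A and 35.56 and 37.01 CPM in WT. Over WT put4 was at 0.21 in S7A and −1.42 in Y1F, and S2A and Y1F were not told apart. aat1, another amino acid permease gene, had 146 and 139 CPM in S2A, against 226 and 244 CPM in WT. The plasma membrane zinc importer gene zrt1 had 145 and 132 CPM in S2A, against 224 and 219 CPM in WT (−0.68 ± 0.048). vtc4, of the complex that makes polyphosphate in the vacuole, had 173 and 174 CPM in S2A and 267 and 237 CPM in WT (−0.54 ± 0.056). All S2A values in these sentences lay below both WT values. However, zrt1 and vtc4 belong to the zinc and vacuolar metal list, which did not lean lower. Of its 15 genes 6 rose (40.0%) and 4 fell (26.7%), against 24.9% and 29.4% of coding genes. The largest change in that list was a rise of 1.44.

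**Figure D3:**
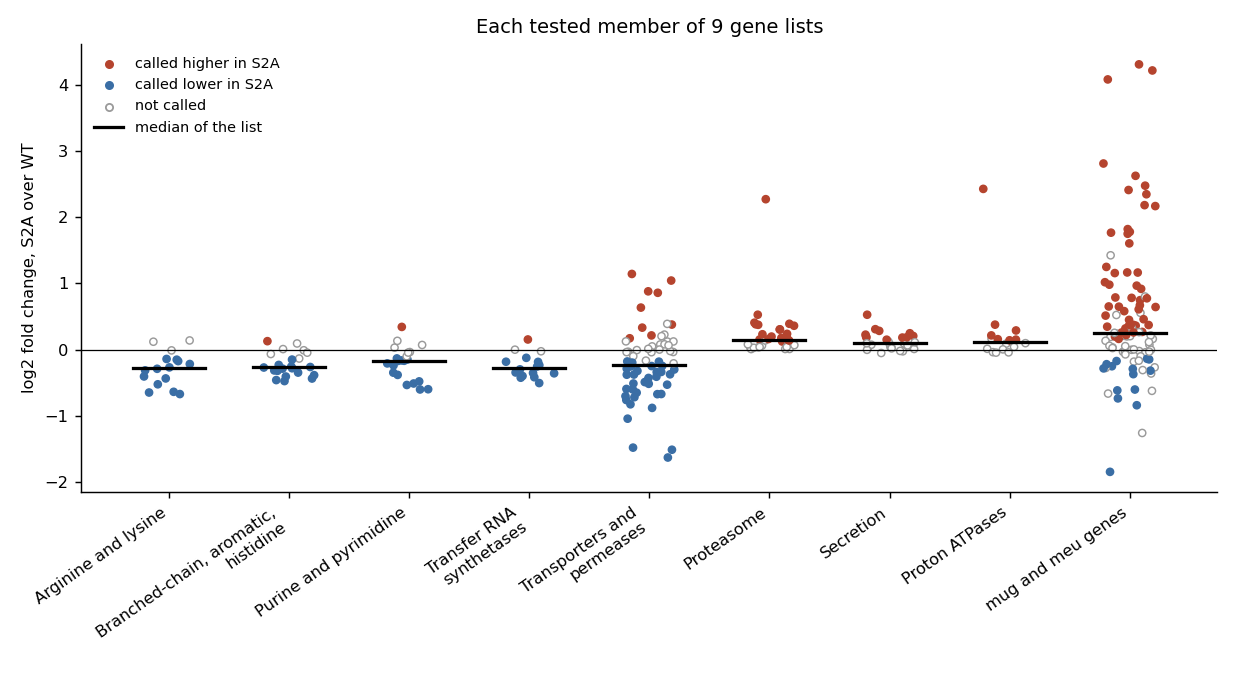
Log2 fold change of S2A over WT for each tested member of 9 gene lists; filled points were called (red higher, blue lower), open points were not, and the bar is the median. The 4 lists on the left have medians between −0.28 and −0.17 and no member past 2-fold, while the mug and meu genes on the right reach 4.31.

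The protein-making machinery beyond the ribosome was mixed. Of 26 translation factor genes 10 fell and 3 rose, and the count of falls was 5 with the compared groups alone, 4 without S2A replicate 1 and 3 without WT replicate 1. The rises numbered 1 with the compared groups alone and without either WT replicate or either Y1F replicate. The initiation factor gene tif5 had 754 and 822 CPM in S2A, against 652 and 600 CPM in WT (0.33 ± 0.057). Of 33 genes of RNA polymerases I and III, which make ribosomal and transfer RNA, 14 fell and 5 rose. brf1, a subunit of the initiation factor of polymerase III, had 19.3 and 20.3 CPM in S2A and 29.01 and 24.997 CPM in WT (−0.45 ± 0.096). rrn3, which recruits polymerase I, went the other way, with 229 and 230 CPM in S2A, against 178 and 179 CPM in WT (0.36 ± 0.040).

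Most proteasome genes rose in S2A by the test used here, by small amounts. Of 34 genes tested, 20 rose, 0 fell and 14 were not called, with a median of 0.15. edgeR gave 22 higher and 0 lower at an unadjusted p under 0.05, and DESeq2 called 14 higher and 0 lower. pre8, a subunit of the core particle, had 274 and 265 CPM in S2A, against 203 and 205 CPM in WT (0.41 ± 0.043, adjusted p = 6.64e-06). fub1, a regulator of the PI31 family, had 17.6 and 18.5 CPM in S2A and 12.9 and 12.1 CPM in WT. The related gene fub2 had the largest change but was scarce, with 3.21 and 2.98 CPM in S2A and 0.655 and 0.618 CPM in WT (2.27 ± 0.28). Of 30 genes for ubiquitin and SUMO conjugation 9 rose and 5 fell, and the counts were 5 rises and 3 falls without S2A replicate 2 and 3 falls without WT replicate 2. Within that list ubi4, the polyubiquitin gene, had 392 and 359 CPM in S2A, against 194 and 197 CPM in WT (0.94 ± 0.056, adjusted p = 4.29e-08). slx8, a ligase that acts on proteins tagged with SUMO, had 54.7 and 52.4 CPM in S2A and 36.4 and 35.6 CPM in WT (0.57 ± 0.064).

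Genes of secretion and of the proton pumps also had rises and no falls. Of 28 secretion and vesicle traffic genes 11 rose and 0 fell (median 0.09). edgeR gave 11 higher and 0 lower at an unadjusted p under 0.05, and DESeq2 called 9 higher and 0 lower. pep12, a SNARE of the route to the vacuole, had 73.1 and 70.1 CPM in S2A, against 49.5 and 50.1 CPM in WT (0.53 ± 0.052). sec31, of the COPII coat that buds vesicles from the endoplasmic reticulum, had 696 and 711 CPM in S2A and 584 and 553 CPM in WT. The Rab GTPase gene ypt2 rose by 0.28. Of 16 genes of the vacuolar and plasma membrane proton pumps 7 rose and 0 fell (median 0.12). edgeR gave 8 higher and 0 lower at an unadjusted p under 0.05, and DESeq2 called 4 higher and 0 lower. vma16, in the membrane sector of the vacuolar pump, had 124 and 124 CPM in S2A, against 92.7 and 98.1 CPM in WT (0.38 ± 0.050). pma2, the minor plasma membrane pump, had 1.90 and 1.76 CPM in S2A and 0.327 and 0.343 CPM in WT. Of 29 autophagy genes 9 rose and 5 fell, with 3 falls by DESeq2, without S2A replicate 1 and without WT replicate 1. Among the risers was atg8, which coats the autophagosome, at 53.7 and 56.5 CPM in S2A, against 38.8 and 41.2 CPM in WT.

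Single genes of glucose uptake, trehalose and stress were higher in S2A, and the 2 WT libraries differed from each other at several of them. ght5 had 233 and 279 CPM in S2A, against 74.2 and 40.2 CPM in WT (2.16 ± 0.27, adjusted p = 2.57e-05). Of the other markers of glucose-starved cells, fbp1 and inv1 were not called: fbp1 had 10.6 and 17.2 CPM in S2A and 11.6 and 7.35 CPM in WT, and inv1 had 13.6 and 15.4 CPM in S2A and 15.4 and 1.92 CPM in WT. The 3 markers summed to 257 and 312 CPM in S2A, against 101 and 49.4 CPM in WT, and none was at 0 in all libraries. Without WT replicate 1 all 3 were called higher, and without S2A replicate 1 the number was 2. The part of glucose supply in these results was not tested. Of 25 heat shock genes 7 rose and 2 fell, and the counts were 4 rises without S2A replicate 1 and 4 falls without WT replicate 1. ssa1, an Hsp70 gene, had 241 and 173 CPM in S2A and 36.5 and 83.1 CPM in WT, and the disaggregase gene hsp104 had 524 and 392 CPM in S2A and 151 and 295 CPM in WT. The hsp104 call was lost without S2A replicate 1 (adjusted p = 0.0503). The 2 WT libraries differed 2.28-fold at ssa1, 1.95-fold at hsp104 and 1.85-fold at ght5. Of 12 genes for gluconeogenesis, trehalose and glycerol 3 rose and 1 fell, with 5 rises without WT replicate 1 and without Y1F replicate 2, and 2 falls without WT replicate 2. Among the risers were trehalose genes on both sides of the pathway. tps1, which makes trehalose phosphate, had 395 and 350 CPM in S2A, against 209 and 273 CPM in WT (0.63 ± 0.10), and the trehalase gene ntp1 had 209 and 206 CPM in S2A, against 114 and 144 CPM in WT (0.69 ± 0.084). Both also rose in S7A, by 0.68 and 0.86 over WT, and S2A and S7A were not told apart. In Y1F they were at −0.56 and −0.08 over WT. atf1, the stress transcription factor gene, had 207 and 190 CPM in S2A, against 106 and 145 CPM in WT (0.66 ± 0.13).

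Redox genes changed in both directions, about as often as coding genes at large. Of 29 genes for oxidative stress and thiol defence 8 rose (27.6%) and 9 fell (31.0%), against 24.9% and 29.4% of coding genes. bcp1, a thioredoxin peroxidase gene, had 14.8 and 15.8 CPM in S2A, against 39.7 and 37.6 CPM in WT (−1.35 ± 0.083, adjusted p = 6.4e-08). gst2, a glutathione transferase gene, had 447 and 368 CPM in S2A and 193 and 168 CPM in WT (1.18 ± 0.092, adjusted p = 4.73e-07). The scarce paralog gst1 had 0.535 and 0.338 CPM in S2A and 1.77 and 2.54 CPM in WT. Of 19 glycolysis and fermentation genes 18 were tested, and 4 rose and 3 fell; the falls numbered 5 by DESeq2 and 6 without WT replicate 2. The 2 with the largest changes were scarce isoforms, the enolase gene eno102 at 10.3 and 9.41 CPM in S2A, against 4.13 and 4.05 CPM in WT, and the pyruvate decarboxylase gene pdc201 at 11.5 and 14.2 CPM in S2A, against 6.61 and 5.43 CPM in WT. Reads of such paralogs, and of the Hsp70 genes ssa1 and ssa2, could be shared between copies. Of 19 tricarboxylic acid cycle genes 7 fell and 4 rose, with the citrate synthase gene cit1 at 152 and 157 CPM in S2A and 196 and 188 CPM in WT (−0.32 ± 0.043).

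Most cell wall genes were not called, and the called ones included enzymes of the spore wall. Of 30 cell wall genes 9 rose (30.0%) and 2 fell (6.7%), against 24.9% and 29.4% of coding genes. Without WT replicate 2 the count of rises was 14. bgs2, the glucan synthase of the spore wall, had 129 and 135 CPM in S2A, against 80.4 and 84.1 CPM in WT (0.68 ± 0.050, adjusted p = 2.93e-07). mok14, a spore wall glucan synthase gene, had 150 and 151 CPM in S2A and 118 and 117 CPM in WT (0.36 ± 0.043). mok11, another glucan synthase gene of this family, had 237 and 246 CPM in S2A, against 177 and 172 CPM in WT (0.47 ± 0.048). For bgs1, bgs3, bgs4 and ags1, glucan synthase genes of growing cells chosen after their values were seen, the log2 fold changes lay between −0.01 and 0.03. The genes named before them were taken for their large changes. A difference between spore wall genes and those of growing cells was therefore not tested.

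Single genes of division and the cytoskeleton stood out from lists that were otherwise near or under the background. Of 27 cytokinesis and septation genes 8 rose and 5 fell, with 3 falls by DESeq2 and without WT replicate 1. sid1, a kinase of the septation initiation network, had 58.8 and 63.4 CPM in S2A, against 17.7 and 19.7 CPM in WT (1.70 ± 0.081, adjusted p = 8.04e-09). mob1, a regulatory subunit of a kinase further down that network, went the other way, with 16.2 and 18.1 CPM in S2A and 22.9 and 24.1 CPM in WT (−0.46 ± 0.089). vrp1, which encodes verprolin of actin patches, had 72.8 and 70.5 CPM in S2A, against 40.7 and 39.2 CPM in WT (0.84 ± 0.056, adjusted p = 1.18e-07). Its neighbours on either side, leo1 and brf1, lie on the opposite strand and both fell. klp8, a kinesin gene, had 24.4 and 25.7 CPM in S2A, against 46.1 and 43.1 CPM in WT (−0.84 ± 0.067). Its neighbour in divergent orientation, srw1, an activator of the anaphase-promoting complex in G1, had 21.25 and 20.03 CPM in S2A and 32.4 and 32.1 CPM in WT. The kinetochore gene sim4 fell by 0.72, and alp1, a tubulin folding cofactor gene, rose by 0.68. Of 29 cell cycle control genes 5 rose and 6 fell. The rises numbered 1 by DESeq2 and without S2A replicate 1, 2 with the compared groups alone and without WT replicate 1, 3 without S2A replicate 2 or either S7A replicate, and 8 without WT replicate 2. Of 26 actin and polarity genes 4 rose and 5 fell. The falls numbered 2 by DESeq2, under TMM on coding genes, with the compared groups alone and without WT replicate 1, and 3 without either S2A or either S7A replicate. Of 27 tubulin, kinesin and kinetochore genes 6 rose and 9 fell, with 2 rises by DESeq2, without S2A replicate 1 and without WT replicate 1. Of 63 replication and repair genes 17 rose and 15 fell. cdc45, which joins GINS at the replication fork, fell like psf3, with 38.5 and 39.3 CPM in S2A, against 66.1 and 69.7 CPM in WT (−0.81 ± 0.061). drc1, an assembly factor of the same initiation step, rose, with 80.4 and 86.8 CPM in S2A and 52.3 and 48.6 CPM in WT (0.73 ± 0.059).

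Genes of the transcription machinery that works with the Rpb1 tail were called about as often as all coding genes. Of 37 genes of general factors and Mediator 10 rose and 9 fell, and DESeq2 called 6 higher. med18, of the Mediator head, had 24.3 and 23.1 CPM in S2A, against 44.99 and 45.19 CPM in WT (−0.93 ± 0.077, adjusted p = 7.86e-07). Another head subunit gene, srb6, had 38.17 and 37.97 CPM in S2A and 25.5 and 25.5 CPM in WT (0.58 ± 0.073). sua7, which encodes TFIIB, had 131 and 128 CPM in S2A, against 84.5 and 89.1 CPM in WT (0.58 ± 0.051). Of 22 elongation genes 5 rose and 7 fell, with 3 rises by DESeq2. tpr1, a subunit of the Paf1 complex, had 153 and 159 CPM in S2A, against 285 and 263 CPM in WT (−0.81 ± 0.051, adjusted p = 7.54e-08). leo1, of the same complex, had 72.1 and 75.9 CPM in S2A and 105 and 98.1 CPM in WT (−0.46 ± 0.055). A further pair of subunit genes of the complex, paf1 and cdc73, named after their values were seen, were at −0.10 and −0.07 and were not called. The remodeller gene hrp1 had 197 and 211 CPM in S2A, against 290 and 285 CPM in WT. Of 52 genes of SAGA, NuA4, COMPASS and remodellers 14 rose and 11 fell.

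RNA processing and chromatin lists held few large changes. Of 66 splicing genes 11 rose and 15 fell, with 7 rises by DESeq2. Among them sap14, which contacts the branch site, had 10.4 and 9.88 CPM in S2A, against 19.1 and 18.6 CPM in WT (−0.89 ± 0.10), and the kinase gene prp4 and the helicase gene prp16 each fell by 0.68. Of 37 decay genes 10 rose and 10 fell, with 6 rises by DESeq2 and without S2A replicate 1. upf1, the helicase of nonsense-mediated decay, had 131 and 124 CPM in S2A and 184 and 183 CPM in WT (−0.52 ± 0.043). Of 34 heterochromatin genes 9 rose and 12 fell, with 7 falls by DESeq2. stc1, which links RNA interference to the histone methyltransferase complex, had 3.89 and 4.20 CPM in S2A, against 7.40 and 8.86 CPM in WT (−1.01 ± 0.17). cbh2, a CENP-B family gene, had 91.2 and 91.0 CPM in S2A and 51.3 and 54.8 CPM in WT (0.78 ± 0.061). cid12, of the RNA-directed RNA polymerase complex, had 88.1 and 88.9 CPM in S2A, against 61.4 and 60.6 CPM in WT (0.54 ± 0.052).

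Nuclear genes for mitochondrial ribosomes rose somewhat more often than they fell. Of 76 such genes 75 were tested, and 23 rose and 9 fell, with a median of 0.07. DESeq2 called 4 of them lower, and the compared groups alone gave 5. mrpl24 had 92.3 and 87.5 CPM in S2A, against 55.5 and 60.4 CPM in WT (0.64 ± 0.054). Of 28 other mitochondrial gene expression genes 8 rose and 11 fell, or 7 fell without WT replicate 2, and mef2, an elongation factor of the organelle, had 42.6 and 41.4 CPM in S2A and 68.3 and 69.8 CPM in WT (−0.71 ± 0.051).

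Genes named mug or meu, for meiotic upregulation, rose in S2A more often than coding genes at large. Of 110 such genes 106 were tested, and 49 rose and 14 fell, with a median of 0.25. Without WT replicate 1 the falls numbered 8. At 2-fold or more 20 were higher and 1 lower. Leaving out the 2 that are also meiosis markers gave 47 higher and 14 lower of 104. Most of these genes are scarce in growing cells: 80 of the 106 were in the lowest of 4 equal abundance classes of coding genes, and 38 of the 80 rose, against 303 of all 1248 coding genes of that class. mug131 had 4.13 and 4.13 CPM in S2A, against 0.262 and 0.137 CPM in WT (4.31 ± 0.37, adjusted p = 1.17e-06). meu14, which acts at the forming spore membrane, had 14.6 and 12.2 CPM in S2A and 2.03 and 2.33 CPM in WT. The 6 meiosis and sporulation markers summed to 94.1 and 92.4 CPM in S2A, against 63.4 and 56.4 CPM in WT. Among them mde10 stood at 43.7 and 40.9 CPM in S2A and 32.8 and 29.5 CPM in WT. The part of such cells in the results on mug and meu genes was not tested. In bulk RNA more cells of a type and more RNA per cell cannot be told apart.

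Of 94 genes whose product names a protein kinase 93 were tested, and 17 rose and 26 fell; the falls numbered 15 by DESeq2, 17 with the compared groups alone, 16 without S2A replicate 1, 15 without S2A replicate 2 and 16 without WT replicate 1. oca2, a kinase gene, had 129 and 129 CPM in S2A, against 67.6 and 67.3 CPM in WT (0.93 ± 0.076). Of 29 genes for DNA-binding transcription factors 28 were tested, and 8 rose and 11 fell. Of 367 uncharacterized proteins 317 were tested, and 99 rose and 69 fell, with 27 and 10 of them past 2-fold. SPAC4F10.17, an uncharacterized protein, had 7.93 and 8.73 CPM in S2A, against 0.131 and 0.0687 CPM in WT. Over both WT libraries it had 3 counts, so its ratio of 82.2 has a 95% counting interval of 27.8 to 401, which covers counting error only.

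The size of a change went with how abundant a gene was. Coding genes were divided into 4 equal classes by mean CPM. In the lowest class 119 coding genes were called at least 2-fold higher and 64 at least 2-fold lower, of 1248. In the highest class 5 were 2-fold higher and 5 lower, also of 1248. In that class 18.7% were called higher and 35.7% lower at any size. The third class had the reverse balance, with 29.8% higher and 25.9% lower. By protein length, from the shortest to the longest of 4 classes 28.0%, 23.6%, 22.4% and 25.6% were higher, and 24.5%, 30.0%, 34.0% and 28.9% were lower. At 2-fold or more the longer classes held fewer falls, with 35, 21, 19 and 10 genes in the same order, and 35, 35, 36 and 31 rises. Genes with the upstream coding neighbour on the opposite strand were higher in 25.3% and lower in 27.7% of cases, and those with it on the same strand in 24.4% and 31.3%. Of genes with no coding intron 26.7% were higher and 29.5% lower, and of genes with 2 or more coding introns 22.9% and 29.8%.

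**Figure D4:**
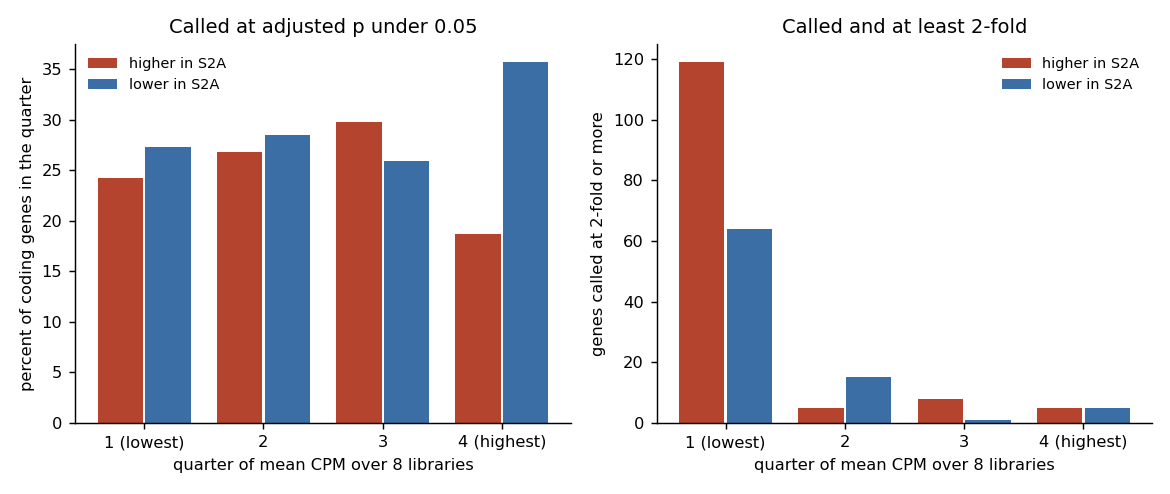
Percent of coding genes called (left) and number called at 2-fold or more (right) in S2A against WT, by class of mean CPM (4 equal classes) over the 8 libraries; red bars are higher and blue bars lower in S2A. Calls were spread over all classes, whereas changes of 2-fold or more lay mostly in the lowest, with 119 higher and 64 lower.

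Positions were described by gene order alone. Runs of 3 consecutive coding genes that were all at least 2-fold higher in S2A numbered 3, and no such run was lower. The first holds SPAC186.04c, gdt1 and SPAC186.06, near 0 in WT: SPAC186.06 had 40 counts over both S2A libraries and 0 over both WT libraries, so it was at least 11.3-fold higher, taking 3 counts over the WT libraries as the floor. The next run holds the sterol deacetylase gene say1, SPBPB2B2.05 and SPBPB2B2.06c. say1 had 13.5 and 13.6 CPM in S2A, against 4.65 and 7.55 CPM in WT, and SPBPB2B2.05 had 21.2 and 21.4 CPM in S2A, against 5.89 and 10.2 CPM in WT. The last holds SPBPB2B2.18, SPBPB2B2.19c and SPBCPT2R1.01c, which were scarce: SPBPB2B2.19c, for instance, had 2.38 and 2.37 CPM in S2A and 0.524 and 0.481 CPM in WT.

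The S2A strain also differed from both other tail mutants in direct tests. Against S7A 3317 of 6243 genes were called (53.1%), with 28.3% higher and 24.9% lower in S2A. At 2-fold or more the share was 10.8%, made up of 8.86% higher and 1.99% lower. Against Y1F 3051 were called (48.9%), with 25.1% higher and 23.7% lower. At 2-fold or more it was 8.99%, with 7.53% higher and 1.46% lower. The transfer RNA synthetase genes were lower in S2A than in S7A in 12 of 16 cases and lower than in Y1F in 8 of 16. The arginine and lysine genes were lower than in S7A in 7 and lower than in Y1F in 5 of 16, and their medians over WT were −0.28 in S2A, −0.22 in S7A and −0.21 in Y1F. Of the proteasome genes 12 of 34 were lower in S2A than in S7A and 1 higher, and 12 were higher than in Y1F and 1 lower. Of the proton pump genes 8 of 16 were lower in S2A than in S7A and 1 higher. Their medians over WT were 0.12 in S2A, 0.24 in S7A and 0.10 in Y1F. Secretion genes had medians over WT of 0.09 in S2A, 0.11 in S7A and 0.06 in Y1F. Of these 28 genes 5 were higher and 5 lower in S2A than in S7A, and 5 were higher and 0 lower than in Y1F. Elongation genes were lower in S2A than in S7A in 13 and higher in 2 of 22 cases, and lower than in Y1F in 9 and higher in 3. Sulfur and methionine genes were lower than in S7A in 13 and higher in 0 of 19, but lower than in Y1F in 5 and higher in 4. Of 106 mug and meu genes 48 were higher and 12 lower in S2A than in S7A, and 36 were higher and 13 lower than in Y1F. These comparisons share the S2A libraries, as the comparisons with WT share the WT libraries.

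Single genes showed each pattern. bgs2 had 129 and 135 CPM in S2A, 84.0 and 85.8 CPM in S7A, 79.4 and 85.6 CPM in Y1F, and 80.4 and 84.1 CPM in WT; S2A exceeded S7A by 0.63 and Y1F by 0.67 (adjusted p = 3.2e-07 and 3.35e-07). ubi4 had 228 and 251 CPM in S7A and 206 and 202 CPM in Y1F, and S2A exceeded them by 0.65 and 0.88. osr1 stood at 24.6 and 23.3 CPM in S7A and 13.7 and 14.4 CPM in Y1F, both below S2A. sid1 had 17.7 and 16.4 CPM in S7A and 29.7 and 32.2 CPM in Y1F, and its level in S2A was above both. bcp1 was lower in S2A than in either mutant, which had 32.5 and 36.5 CPM in S7A and 43.9 and 45.1 CPM in Y1F. Other genes lay on different sides in the 2 mutants or were not told apart from 1 of them. psf3 had 45.2 and 43.2 CPM in S7A but 6.76 and 6.83 CPM in Y1F, so that Y1F lay below S2A. For vht1 S2A and S7A were not told apart (−0.17 ± 0.072, adjusted p = 0.0688), with 151 and 143 CPM in S7A, whereas Y1F had 219 and 188 CPM. tpr1 had 274 and 292 CPM in S7A and med18 had 52.9 and 46.9 CPM in S7A, all above S2A. In Y1F tpr1 had 178 and 180 CPM and med18 had 29.5 and 28.1 CPM, above S2A by 0.20 and 0.27 on the log2 scale. SPBPB2B2.05 and SPBPB2B2.06c, a neighbouring pair that rose in S2A, were near 0 in Y1F, with at most 0.0444 and 0.177 CPM.

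**Figure D5:**
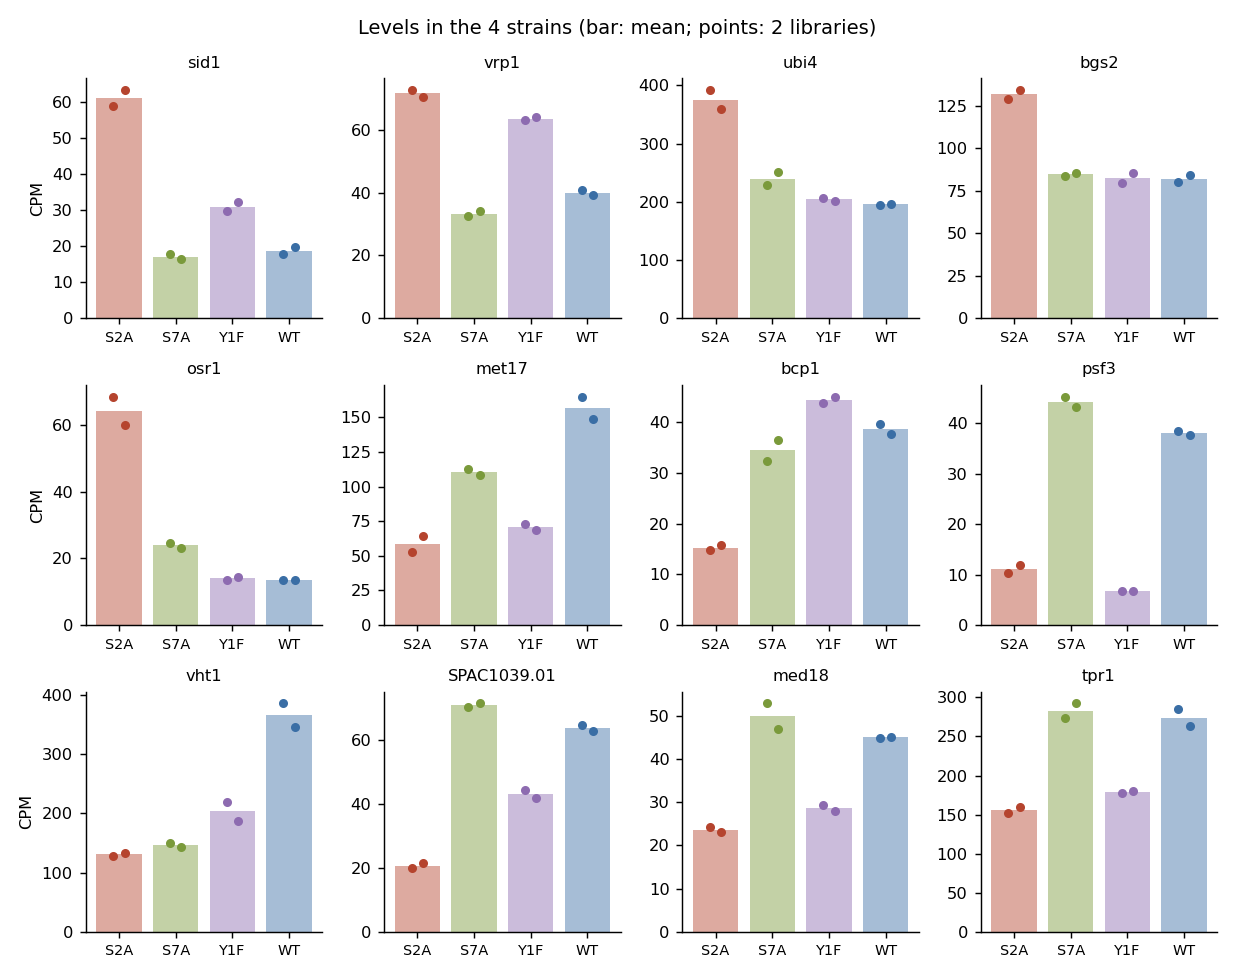
Level in CPM of 12 genes in the S2A, S7A, Y1F and WT strains; bars are means and points are the 2 libraries of each strain. sid1, ubi4, bgs2 and osr1 are highest in S2A, bcp1 and SPAC1039.01 are lowest in S2A, and psf3, med18 and tpr1 are low in both S2A and Y1F.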

How the data were processed

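The deposited table holds counts of reads per gene ID for 8 libraries, 2 per strain. Per the submitters' processing notes, the authors used HISAT2 and featureCounts with the build ASM294v2, and the notes also name StringTie, DESeq2 and deepTools. Per the labels' protocols, libraries were made with a stranded kit after ribosomal RNA depletion and read as 2 × 100 nt. Whether reads were counted by strand was not stated. In the ASM294v3 annotation 90.5% of the tested coding genes overlap a gene on the opposite strand, as do 143 of the 163 named genes, so reads of a gene and its antisense partner may not be told apart.

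The counts were fitted as deposited with edgeR 4.0.16 (R 4.3.3): filterByExpr with a minimum count of 10 and a minimum total of 15, TMM scaling, 1 mean per strain over all 8 libraries, and quasi-likelihood tests with Benjamini-Hochberg adjustment over 6243 genes. The biological coefficient of variation was 4.44%, with 4 residual degrees of freedom. The fit was tested on simulated data. Of 7000 IDs 6797 matched RefSeq's ASM294v3 annotation, which supplied symbols, products, coding lengths and gene order; no coordinates were used. Libraries of a strain differed by more than sampling noise, with a chi-square per gene of 4.93 to 11.0.

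Genes named in the text were taken from rpb1, the 10 largest rises and falls of coding genes of at least 20 CPM whose S2A and WT libraries do not overlap, the 10 largest changes among the 200 most abundant coding genes, and, where a list had at least 3 called members, the 3 that changed most. Genes of the pheromone and mating pathways were left out of the largest changes. The rule gave 163 genes, called the named genes here, and the text does not describe all of them. There were 43 lists of symbols and 7 made from gene names or product words; 33 symbols that the annotation gives to another gene were removed. The members and lists were chosen with earlier results of these data known. Medians and counts describe the lists, and no list was tested as a set.

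Alternatives were DESeq2 1.42.0, RLE scaling, TMM on coding genes, no filter, a filter of 5 CPM in 2 libraries, a fit of the compared groups alone, a replicate block, leaving out each library, and 2 in place of 4 gene classes.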

Additional observations from a re-analysis of the deposited data

How the results depend on the processing

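The count of genes called in S2A against WT was 2789 to 3518 over the alternatives, and 2875 to 3353 when 1 library was left out. Against S7A the range without 1 library was 2572 to 3504 and against Y1F 2320 to 3254. DESeq2 gave 2789, 2690 and 2337 genes against WT, S7A and Y1F. Requiring a change of at least 2-fold left 658, 677 and 561 genes, and with the filter of 5 CPM 381, 431 and 334. No gene called both in an alternative and in the reported fit changed direction. Of 163 named genes 157 were called under every alternative; cdc16, pabp, ubc8, atg101, hsp104 and mug27 lost the call in at least 1. The labels give the replicate numbers no shared source, and deviations of same-numbered libraries correlated at −0.18 for S2A with WT, 0.14 for S2A with S7A, −0.13 for S2A with Y1F and 0.24 for Y1F with WT, so the numbers were not taken to pair the samples. With the replicate block 3403 genes were called against WT, 3257 against S7A and 2970 against Y1F. A crossed replicate block, chosen after seeing the data, gave 3518 against WT. The 2 libraries per strain limit precision, and for genes near 0 in WT counting error limits the fold.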

Other observations

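The remaining gene lists gave these counts in S2A against WT, beside 24.9% higher and 29.4% lower over all coding genes. Of 51 signalling genes 11 rose and 7 fell, with 4 falls without S2A replicate 2. Of 34 export and nuclear pore genes 9 rose and 7 fell, with 4 falls by DESeq2 and without WT replicate 1. Of 23 cohesin, condensin and Smc5-6 genes 4 rose and 5 fell. The falls numbered 2 by DESeq2 and without WT replicate 1, and 3 under TMM on coding genes, with the filter of 5 CPM, with the compared groups alone, and without S2A replicate 1 or either S7A replicate. Of 27 endoplasmic reticulum genes tested 6 rose and 10 fell, of 33 mitochondrial import genes 4 rose and 8 fell, and of 15 zinc and vacuolar metal genes 6 rose and 4 fell. Of 174 oxidoreductase genes tested 47 rose and 54 fell. Among single genes, nse1, of the Smc5-6 complex, rose by 0.59 on the log2 scale, and cnd3, a condensin subunit gene, fell by 0.47. The dihydroxyacetone kinase gene dak2 fell by 0.76 beside its divergent neighbour SPAC977.17.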
